A study of Mus musculus with 76 samples.

Results

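Of 76 single mouse induced haematopoietic progenitor cells (iHPCs), 15 carried Tcf7 at 10 TPM or more and are described here against the 46 cells in which both Tcf7 and Lck were below 10 TPM. TPM is the share of a cell's transcripts that a gene takes after scaling for gene length. The cells were chosen by their Tcf7 and Lck values alone, so these 2 genes are given as a description and are left out of every count. All 15 Tcf7-positive cells also held Lck at 10 TPM or more. The remaining 15 cells held Lck without Tcf7, and their values are set beside the others for part of the genes. The cells without either gene are called double-negative below.

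Per the labels, the iHPCs came from pluripotent stem cells made to express Runx1, Hoxa9 and Hoxa10 inducibly, a treatment that all 3 sets of cells share, and were sorted as single cells before polyA RNA was amplified. The labels credit iHPCs with giving blood cells in C57BL/6 recipients, whereas the cells measured here were sorted in vitro. The deposited table is marked D21, which the labels do not explain. No label names a culture, clone or sort gate, and every cell belongs to 1 group. The group therefore counts as 1 sample, cells are not replicates, and the shares below come with no test between sets.

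Tcf7 encodes TCF-1, a DNA-binding protein of the Wnt pathway that is switched on by Notch signalling in the thymus and opens the T cell programme in early thymic progenitors. Lck is the kinase that starts signalling from the T cell receptor, and it is also found in other lymphoid cells. Early T progenitors still share genes with myeloid, natural killer (NK) and B cell precursors, and lose them as commitment proceeds under regulators such as Gata3 and Bcl11b.

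In the 15 Tcf7-positive cells, Tcf7 (chr11:52246527-52283383 in GRCm38.p6) ranged from 53.1 TPM through a median of 349 TPM to 1687 TPM. The highest value below the threshold was 3.71 TPM, in a cell with Lck, and the highest in a double-negative cell was 2.40 TPM. No cell lay between 3.71 and 53.1 TPM, so thresholds of 5 or 50 TPM would choose the same 15 cells. Lck (chr4:129548344-129573641) ranged from 81.8 to 2345 TPM in the Tcf7-positive cells (median 346 TPM) and from 14.4 to 1149 TPM in the cells with Lck alone (median 169 TPM). Below the threshold, traces were common: 18 double-negative cells held Tcf7 and 14 held Lck at 1 TPM or more, and 5 listed both genes at 0.

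**Figure D1:**
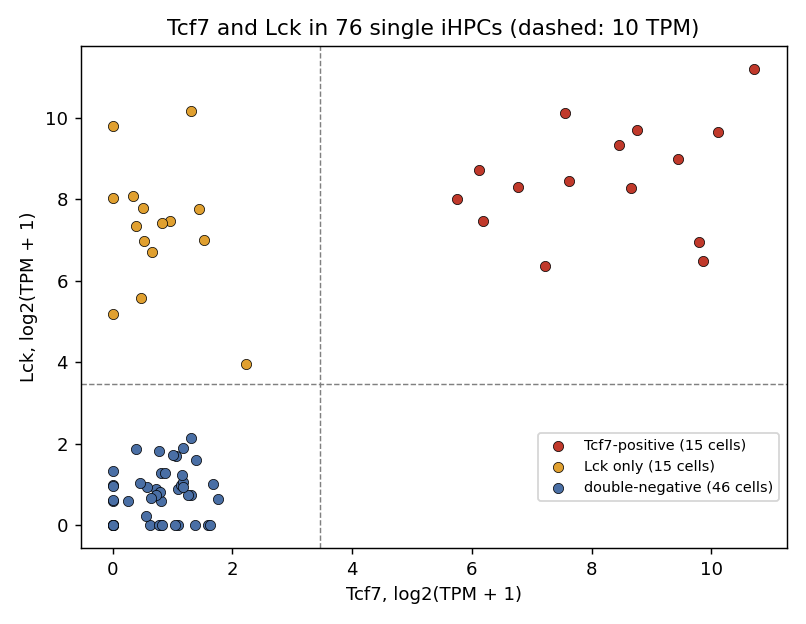
Tcf7 (x axis) and Lck (y axis) in each of the 76 cells, both as log2(TPM + 1), coloured by set, with dashed lines at 10 TPM. The 15 Tcf7-positive cells all lie above both lines, and no cell lies at high Tcf7 with Lck below 10 TPM.

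A gene was called present in a cell at 10 TPM or more, and its share of cells is given with an exact 95% interval, which covers the counting of cells only. A gene was counted as higher or lower when its share differed by at least 30 percentage points, among 8391 genes present in at least 5 of the cells compared. By that rule 259 genes were higher in Tcf7-positive cells (3.09% of those tested) and 127 were lower (1.51%). The exact intervals of the 2 shares lay apart for 94 of the 259 and 37 of the 127. One Tcf7-positive cell is worth 6.67 points, so genes near 30 points rest on few cells. A gene present in 0 double-negative cells could enter only through 5 or more Tcf7-positive cells. As 5 of 15 cells is 33.3%, such a gene passed 30 points by the filter alone. This holds for 13 of the higher genes, so their being counted as higher supports nothing. Among them are Rag2, Ly6d, Gzma, Gzmb, Trat1, Tmem121, Atp8b4 and Timp2. Over all 15190 listed genes other than Tcf7 and Lck, including those too rare to be tested, the median difference was 0 points. Over the tested genes the median was 1.59 and the mean 2.49 points, and the gene lists below are read against both medians. List counts and medians below cover all listed members, tested or not, whereas 3.09% and 1.51% are shares of tested genes. The Tcf7-positive cells had a median of 4177 genes at 1 TPM against 4057 in double-negative and 4531 in Lck-only cells. At 10 TPM, the level used for presence, the medians were 3668, 3506 and 3968 genes and the means 3788, 3549 and 4001. The part of these numbers in the list differences below was not tested. Ribosomal-protein genes took medians of 7.98%, 7.61% and 8.34% of TPM in the same order. Cell titles carry a letter and a number. Of the Tcf7-positive cells 9 had numbers 2 to 6 and 6 had numbers 7 to 11, against 19 and 27 double-negative cells, and what the numbers stand for is not given. Letter A held 4 of the 15.

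T lineage genes were present in more Tcf7-positive cells. Of 20 listed members, 4 (Tox, Trat1, Cd7 and Cd3d) were at least 30 points higher and 0 lower, with a median difference of 12.2 points. Of the 20, 7 entered the comparison of shares and 4 were present in 0 cells. Trat1 was counted as higher by the filter alone. A Tcf7-positive cell held a mean of 4.33 members (lowest 1, median 4, highest 10), an Lck-only cell 1.07 and a double-negative cell 0.717 (highest 3). The difference of 3.62 members was 2.06 without the 6 cells highest in Tcf7. Tox, an HMG-box factor of developing T cells, ranged from 0.231 through a median of 110 to 1512 TPM and was present in 14 of 15 Tcf7-positive cells (93.3%, interval 68.1 to 99.8%). In double-negative cells it had a median of 0 TPM and a highest value of 190 TPM, and was present in 10 of 46 (21.7%, interval 10.9 to 36.4%). The levels overlapped, since some double-negative cells reached those of the middle of the Tcf7-positive cells.

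Trat1, an adaptor that associates with the T cell receptor, ranged from 0 through a median of 168 to 3205 TPM and was present in 10 of 15 cells (66.7%, interval 38.4 to 88.2%). Its highest value in a double-negative cell was 2.67 TPM, and 0 of 46 cells held it, which allows a share of up to 6.52% if 3 counts are taken as the limit, and of 7.71% by the exact interval. Tmem121, a transmembrane protein gene, followed the same pattern: it was present in 11 of 15 cells (73.3%, median 152 TPM, highest 549 TPM) and in 0 of 46. At least 1 of Trat1 and Tmem121 was present in 12 Tcf7-positive, 3 Lck-only and 0 double-negative cells, and both together in 9, 0 and 0; this pair was picked after the values were seen.

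The CD3 genes, which encode signalling chains of the T cell receptor complex, were patchy. Cd3d was present in 5 of 15 Tcf7-positive cells (33.3%, interval 11.8 to 61.6%, highest 184 TPM) and 1 of 46 double-negative cells, and Cd3g in 4 and 1. Cd3e was listed at 0 in all cells, as was Cd2. Without the 6 cells highest in Tcf7, the Cd3d difference of 31.2 points was 8.94 points. Cd7, a surface protein of early T and NK cells, was present in 8 of 15 and 7 of 46 cells. Gata3, the T lineage regulator, was present in 7 of 15 and 9 of 46, a difference of 27.1 points. Bcl11b, which marks T cell commitment, did not reach 1 TPM in any cell, and Cd5 stayed at or below 2.44 TPM. With 15 cells, a count of 0 allows a share of up to 20% by the same limit, and of 21.8% by the exact interval. The 7 fixed T cell markers (Cd3d, Cd3e, Cd3g, Bcl11b, Gata3, Trat1 and Thy1) summed to between 0 and 4377 TPM per Tcf7-positive cell (median 174 TPM) and to a median of 0.552 TPM in double-negative cells. The T lineage genes present thus form part of the programme, with several defining genes present in no cell.

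The RefSeq sequences of GRCm38.p6 for the 250 bases before the start of 5 of these genes are shown because they cover the contrast: Trat1, Tmem121 and Cd3d were more frequent in Tcf7-positive cells, and Gzmb and Ctsg are related serine proteases on chromosome 14 that went in opposite directions. Capitals mark matches on either strand to CTTTGNT, a short form of the motif of TCF-1 and its relatives, or to TGNGGT, a short form of the RUNX motif. The genes and motifs were picked after matches in the promoters of other genes had been looked at, so the matches are no evidence of a pattern. Sequences read 5′ to 3′ on the strand of the gene.
Trat1 (chr16:48772063-48772312, minus strand): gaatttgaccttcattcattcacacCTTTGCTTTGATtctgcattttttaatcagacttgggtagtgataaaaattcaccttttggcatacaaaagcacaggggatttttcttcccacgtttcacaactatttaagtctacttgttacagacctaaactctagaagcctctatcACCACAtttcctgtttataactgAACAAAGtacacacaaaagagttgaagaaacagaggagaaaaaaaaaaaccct
Tmem121 (chr12:113185653-113185902, plus strand): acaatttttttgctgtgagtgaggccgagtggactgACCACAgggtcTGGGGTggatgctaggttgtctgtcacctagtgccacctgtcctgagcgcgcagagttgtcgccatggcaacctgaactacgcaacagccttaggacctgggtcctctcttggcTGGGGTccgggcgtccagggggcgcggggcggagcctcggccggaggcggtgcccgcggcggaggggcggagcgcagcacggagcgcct
Cd3d (chr9:44981536-44981785, plus strand): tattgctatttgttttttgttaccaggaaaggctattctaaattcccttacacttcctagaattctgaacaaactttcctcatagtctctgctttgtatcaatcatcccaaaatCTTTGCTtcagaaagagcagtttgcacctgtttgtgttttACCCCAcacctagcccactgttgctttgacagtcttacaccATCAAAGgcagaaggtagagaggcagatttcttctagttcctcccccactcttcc
Gzmb (chr14:56262335-56262584, minus strand): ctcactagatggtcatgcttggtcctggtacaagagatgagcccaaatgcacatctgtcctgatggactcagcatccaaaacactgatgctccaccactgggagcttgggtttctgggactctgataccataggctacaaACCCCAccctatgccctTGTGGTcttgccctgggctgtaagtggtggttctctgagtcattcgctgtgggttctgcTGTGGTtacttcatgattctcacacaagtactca
Ctsg (chr14:56102575-56102824, minus strand): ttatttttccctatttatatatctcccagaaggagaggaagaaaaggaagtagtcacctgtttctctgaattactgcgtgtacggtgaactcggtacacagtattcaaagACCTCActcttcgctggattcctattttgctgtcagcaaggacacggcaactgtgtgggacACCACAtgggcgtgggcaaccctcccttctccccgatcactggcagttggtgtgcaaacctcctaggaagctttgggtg

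Trat1 held 3 matches to CTTTGNT, a pair of which overlap, and Cd3d held 2, whereas Tmem121, Gzmb and Ctsg held matches to TGNGGT alone. A CTTTGNT match stood in 15.98% of all promoter windows of this length, in 11.8% of those of tested genes, in 9.64% of those of the higher genes and in 21.1% of those of the lower genes. TGNGGT stood in 40.1%, 37.4%, 38.6% and 41.3% in the same order. The windows of the higher genes thus held CTTTGNT in a smaller share than those of all tested genes. Tox, Ly6d, Prss57, Lmo2 and Hes1 were not matched in the promoter table.

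Genes that act between the T cell receptor and its response were broadly shared, with more of them in Tcf7-positive cells. Of 21 listed members 3 were higher (Lat, Lcp2 and Ubash3a) and 0 lower, with a median difference of 15.7 points, and 14 entered the comparison of shares. Cells held a mean of 7.53 members if Tcf7-positive, 5.87 if Lck-only and 4 if double-negative. Lat, the membrane scaffold phosphorylated after receptor engagement, was present in 15 of 15 cells (lowest 67.9 TPM, median 653 TPM, highest 1195 TPM) and in 30 of 46 double-negative cells (median 77.4 TPM, highest 940 TPM). Its partner Lcp2 (SLP-76) was present in 13 of 15 Tcf7-positive and 20 of 46 double-negative cells. Lck-only cells were near the Tcf7-positive ones for both, with Lat in 13 of 15 and Lcp2 in 11 of 15. Txk, a T cell kinase of the Tec family, was present in 4 of 15 and 0 of 46 cells, and all 4 were among the 6 cells highest in Tcf7.

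**Figure D2:**
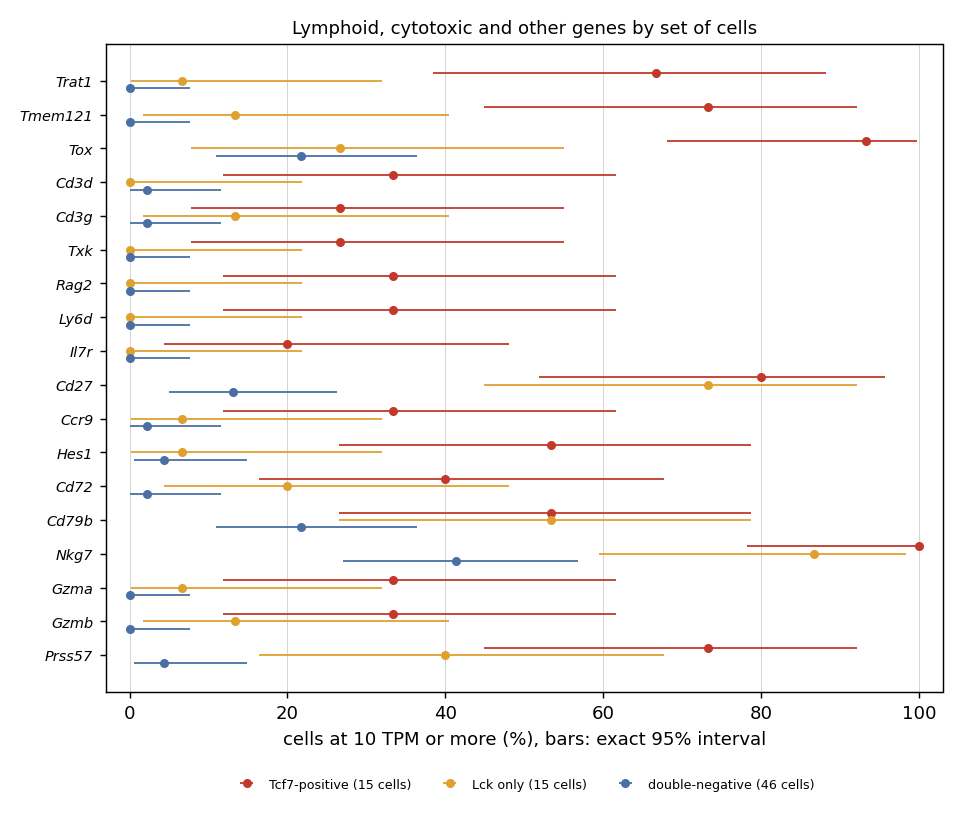
Share of cells at 10 TPM or more (x axis, percent) for lymphoid, cytotoxic and other genes (y axis) in Tcf7-positive, Lck-only and double-negative cells, with bars for exact 95% intervals. Trat1 and Tmem121 are at 66.7% and 73.3% of Tcf7-positive cells and at 0% of double-negative cells, while Nkg7 and Cd27 are also frequent in Lck-only cells.

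Notch pathway genes as a list did not stand apart (13 members, 7 in the comparison of shares, 1 higher, 0 lower, median 0.29 points). The member that did was Hes1, a Notch target gene. Hes1 was present in 8 of 15 Tcf7-positive cells (53.3%, interval 26.6 to 78.7%, median 42.7 TPM, highest 1105 TPM). It was present in 1 of 15 Lck-only and 2 of 46 double-negative cells. Notch1 was present in 2, 2 and 5 cells of the 3 sets.

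Among 21 early lymphoid genes 5 were higher (Rag2, Ly6d, Ltb, Cd27 and Ccr9), 1 was lower (Mef2c), and the median difference was 14.3 points. Of the 21, 16 entered the comparison of shares, and Rag2 and Ly6d were counted as higher by the filter alone. Cd27, a co-stimulatory receptor of the TNF receptor family, was present in 12 of 15 Tcf7-positive cells (80%, interval 51.9 to 95.7%, median 246 TPM). It was as frequent in Lck-only cells, at 11 of 15, and was present in 6 of 46 double-negative cells. Rag2, which with Rag1 cuts DNA at antigen receptor genes, was present in 5 of 15 cells (highest 256 TPM) and in 0 of the other 61 cells. Ly6d, a surface marker of lymphoid-restricted progenitors, was also present in 5 of 15 and in 0 elsewhere. Together with Il7r, the interleukin-7 receptor chain, at least 1 of these genes was present in 7 of the Tcf7-positive cells and in 0 of each other set, a combination picked after the values were seen. The Rag2 difference of 33.3 points was 22.2 points in title numbers 2 to 6, and that of Ly6d was 22.2 points without the 6 cells highest in Tcf7. Rag1 and Dntt, the latter adding bases at receptor joints, were present in 0 of 76 cells. Ccr9, a homing receptor for the thymus and gut, was present in 5 of 15, 1 of 15 and 1 of 46 cells. Mef2c, a factor of early lymphoid and myeloid progenitors, went the other way, at 4 of 15 against 28 of 46.

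Of 18 listed B lineage genes 3 were higher (Cd79b, Cd72 and Rag2) and 0 lower, while 8 were present in 0 cells and 6 entered the comparison of shares. The median difference was 0 points, with the members found in no cell counted as 0. Cells held a mean of 3.87 members if Tcf7-positive, 3.33 if Lck-only and 2.52 if double-negative. The difference of 1.34 lay between 0.982 and 1.76 under the alternative settings. Rag2 is counted with the early lymphoid genes too, and was counted as higher by the filter alone. Cd72, a B cell surface co-receptor, was present in 6 of 15 Tcf7-positive cells, 3 of 15 Lck-only cells and 1 of 46 double-negative cells, and its difference of 37.8 points was 8.94 points without the 6 cells highest in Tcf7. Cd79b, a signalling chain of the B cell receptor, was present in 8, 8 and 10 cells, the same number in both sets with Lck. Its partner Cd79a was listed at 0 in all cells.

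The NK and cytotoxic list held 24 listed members, of which 3 (Nkg7, Gzma and Gzmb) were higher, 0 were lower and 10 were present in no cell. Gzma and Gzmb were counted as higher by the filter alone. The median was 0 points with those members counted as 0, and 9 of the 24 entered the comparison of shares. A mean of 6.27 members was present in a Tcf7-positive cell, 5.4 in an Lck-only cell and 4.48 in a double-negative cell. The difference of 1.79 lay between 0.884 and 2.35 under the alternative settings. Nkg7, a granule membrane protein of cytotoxic cells, was present in 15 of 15 Tcf7-positive cells (lowest 346 TPM, median 980 TPM, highest 2950 TPM). Lck-only cells had a like median, 985 TPM, and double-negative cells a median of 5.49 TPM with a highest value of 2266 TPM. Counted at 1 TPM the Nkg7 difference was 4.35 points rather than 58.7, because most double-negative cells held a trace of it. The levels of the 3 sets overlapped.

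The granzymes, serine proteases of cytotoxic granules, were present in few cells. Gzma was present in 5 of 15 Tcf7-positive cells (33.3%, interval 11.8 to 61.6%), where it reached 10588 TPM, in 1 Lck-only cell and in 0 of 46 double-negative cells, whose highest value was 9.60 TPM. Gzmb was present in 5, 2 and 0 cells, with highest values of 1176, 258 and 1.06 TPM. All 5 cells with Gzma were among the 6 highest in Tcf7, so the difference is 0 points without these. Of the 5 cells, 4 were among the 6 with title numbers 7 to 11, and without the cells of letter A Gzma was present in 2 of 11 cells. At least 1 of Gzma, Gzmb and Ctsw was present in 10, 5 and 0 cells, again a combination picked after its values were seen. Defining NK genes were missing beside them: Ncr1, Klrd1, Tbx21 and Eomes did not reach 1 TPM in any cell. Of the 7 fixed NK cell markers, Gzmb alone was present in a Tcf7-positive cell.

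Neutrophil granule genes split in both directions. Of 21 listed members 4 were higher (Prss57, Nkg7, Clec12a and Plac8), 4 were lower (Prtn3, Ctsg, Ms4a3 and Mgst1), and the median difference was -2.17 points. Of the 21, 13 entered the comparison of shares. The mean number of members per cell was 6.80 in Tcf7-positive, 7.93 in Lck-only and 7.24 in double-negative cells. The difference of -0.439 between Tcf7-positive and double-negative cells lay between -0.848 and -0.0169 under the alternative settings. Nkg7 stands in this list and in the cytotoxic list. Ctsg, the protease cathepsin G of primary granules, was present in 1 of 15 Tcf7-positive cells (6.67%, interval 0.169 to 31.9%, median 0.806 TPM, highest 464 TPM) and in 23 of 46 double-negative cells (50%, interval 34.9 to 65.1%, median 64.5 TPM, highest 5375 TPM). Ms4a3, a membrane protein of granulocyte and monocyte progenitors, was present in 0 of 15, 2 of 15 and 20 of 46 cells. Of Lck-only cells 4 of 15 held Ctsg, and their share was nearer to the Tcf7-positive one for both genes. Prtn3, proteinase 3, was present in 6 of 15, 14 of 15 and 35 of 46 cells. For this gene the Lck-only cells resembled the double-negative ones. At 1 TPM its difference of -36.1 points was -15.8 points. Mpo, myeloperoxidase, was present in 5 of 15, 10 of 15 and 23 of 46 cells, a difference of -16.7 points that was 5.56 points without the 6 cells highest in Tcf7. Elane, neutrophil elastase, was rare in all sets, at 0, 1 and 1 cells.

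Prss57, a serine protease of neutrophil granules (chr10:79781474-79794684), differed in direction from Prtn3 (chr10:79879667-79883174) on the same chromosome. It was present in 11 of 15 Tcf7-positive cells (73.3%, interval 44.9 to 92.2%, median 49.6 TPM, highest 363 TPM), in 6 of 15 Lck-only cells and in 2 of 46 double-negative cells. The genes were not exclusive, being present together in 5, 6 and 2 cells. Plac8, a small cysteine-rich protein of myeloid and lymphoid progenitors, was present in 15 of 15, 14 of 15 and 32 of 46 cells, with medians of 3673, 1386 and 219 TPM. Of the Tcf7-positive cells 9 held at least 1 of Mpo, Prtn3, Ctsg, Ms4a3 and Elane, as did 15 of 15 Lck-only and 39 of 46 double-negative cells. Granule transcripts were therefore present in cells that carry Tcf7: Trat1 and Prtn3 were present together in 3 of them.

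**Figure D3:**
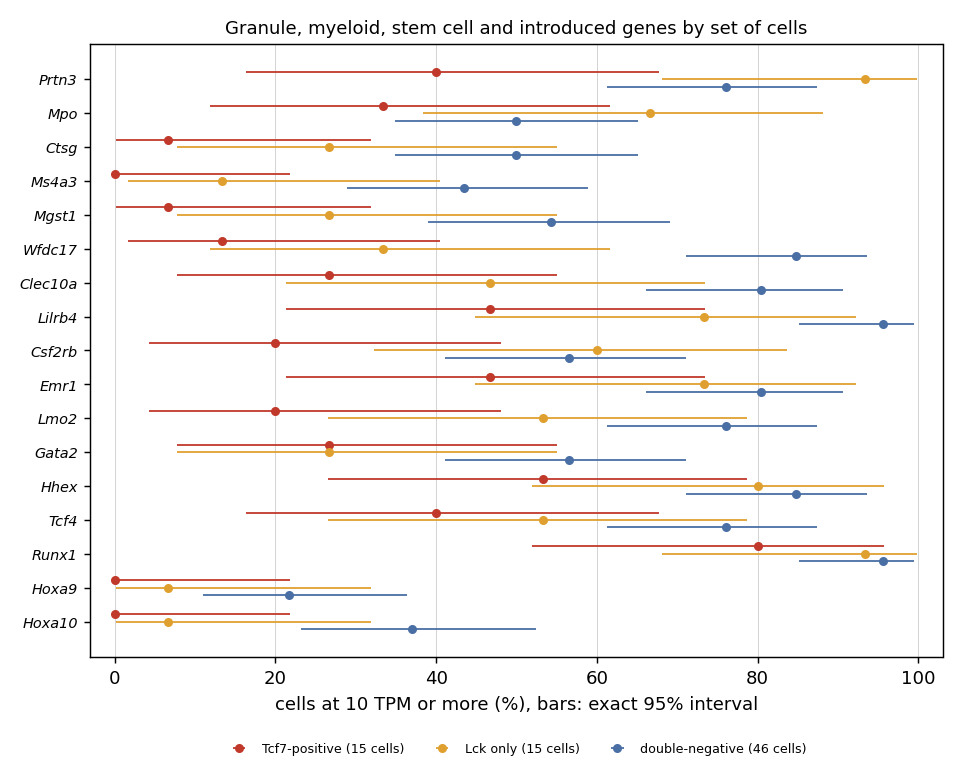
Share of cells at 10 TPM or more (x axis, percent) for granule, myeloid, stem cell and introduced genes (y axis) in the 3 sets, with bars for exact 95% intervals. Ctsg, Ms4a3, Wfdc17 and Lmo2 are lowest in Tcf7-positive cells, at 6.67%, 0%, 13.3% and 20%.

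The myeloid genes named next are those of the 15 with the largest difference downward, or list members past 30 points. Wfdc17, a small secreted protein of macrophages, was present in 2 of 15 Tcf7-positive cells (13.3%, interval 1.66 to 40.5%, median 4.95 TPM, highest 832 TPM). In double-negative cells it was present in 39 of 46 (84.8%, interval 71.1 to 93.7%), its median was 827 TPM and its highest value 24174 TPM. At 1 TPM the difference was -11.2 points, so the sets differ in level more than in the presence of traces. Clec10a, a lectin of macrophages and dendritic cells, was present in 4 of 15 and 37 of 46 cells. Ms4a6c and Cd200r4, both myeloid surface proteins, were present in 0 of 15 cells against 22 and 23 of 46. Of 15 Lck-only cells, 5 held Wfdc17, 7 Clec10a, 3 Ms4a6c and 4 Cd200r4. The Lck-only share was nearer to the Tcf7-positive one for Wfdc17, Clec10a and Ms4a6c, and to the double-negative one for Cd200r4. Lilrb4, an inhibitory receptor, had medians of 6.87 and 1228 TPM, and was present in 7 Tcf7-positive, 11 Lck-only and 44 double-negative cells. The value of Lilrb4 is uncertain, since Gp49a is a near-identical copy and their reads can be exchanged. Csf2rb, the shared chain of the receptors for GM-CSF, IL-3 and IL-5, was present in 3 of 15 and 26 of 46 cells, and in 9 of 15 Lck-only cells. Fcgr2b, an inhibitory Fc receptor, was higher instead, at 9 of 15 and 5 of 46. Over all 28 members of the myeloid regulator and receptor list, 2 were higher and 2 lower, and 21 entered the comparison of shares. The 3 fixed macrophage markers summed to a median of 72.2 TPM in Tcf7-positive and 184 TPM in double-negative cells, and their part in these differences was not tested.

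The mast cell protease Cpa3, also found in multipotent progenitors, was present in 12 of 15 and 30 of 46 cells. Its medians were 1817 and 23.1 TPM, with values up to 23326 and 10521 TPM, so the ranges overlapped. Tpsb2, Cma1 and Fcer1a, the other fixed mast cell markers, were present in no cell. The 4 fixed markers summed to a median of 275 TPM in Lck-only cells. Of 13 listed mast cell and basophil genes 0 passed 30 points in either direction. Cells held a mean of 2.6 of these members if Tcf7-positive, 2.87 if Lck-only and 2.87 if double-negative.

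Regulators of stem and progenitor cells were mixed, with 1 of 20 higher (Meis1) and 2 lower (Lmo2 and Hhex), and 13 entered the comparison of shares. Lmo2, a bridging factor of early blood complexes that is kept off in normal T cells, was present in 3 of 15 Tcf7-positive cells (20%, interval 4.33 to 48.1%, median 0.405 TPM), 8 of 15 Lck-only cells and 35 of 46 double-negative cells (76.1%, interval 61.2 to 87.4%, median 200 TPM). Hhex, a homeobox factor, was present in 8 of 15 Tcf7-positive, 12 of 15 Lck-only and 39 of 46 double-negative cells. Meis1, a HOX cofactor of stem cells, went the other way, at 7 of 15 Tcf7-positive, 6 of 15 Lck-only and 4 of 46 double-negative cells. Gata2, a stem and mast cell regulator, was present in 4, 4 and 26 cells, with the same count in both sets with Lck.

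E proteins, the partners that bind DNA in lymphoid development, differed in direction. Tcf3, which encodes E2A, was present in 12 of 15 Tcf7-positive, 11 of 15 Lck-only and 22 of 46 double-negative cells. Tcf4, which encodes E2-2, was present in 6, 8 and 35 cells. Among 18 Wnt and Tcf partner genes Ctnnb1 and Tle4 were higher and 0 were lower, and 12 entered the comparison of shares. Ctnnb1, beta-catenin, the coactivator that TCF-1 binds, was present in 14 of 15 Tcf7-positive and 23 of 46 double-negative cells (medians 121 and 11.6 TPM). Of Lck-only cells 9 of 15 held Ctnnb1. Tle4, a corepressor of the same factors, was present in 5 of 15 Tcf7-positive, 3 of 15 Lck-only and 1 of 46 double-negative cells.

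The introduced factors were lower or no more frequent in Tcf7-positive cells. Hoxa10 was present in 0 of 15 cells (highest 4.88 TPM), 1 of 15 Lck-only cells and 17 of 46 double-negative cells (interval 23.2 to 52.5%, highest 57.4 TPM). Hoxa9 was present in 0, 1 and 10 cells. At least 1 of the pair was present in 18 double-negative cells. Runx1 was present in 12 of 15, 14 of 15 and 44 of 46 cells with medians of 51.8, 75.2 and 125 TPM. Its difference depended on the title numbers, at 5.26 points in numbers 2 to 6 and -46.3 points in numbers 7 to 11. Gene-level TPM does not separate introduced copies from the chromosomal genes, and at 20 TPM the Hoxa10 difference was -23.9 points.

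**Figure D4:**
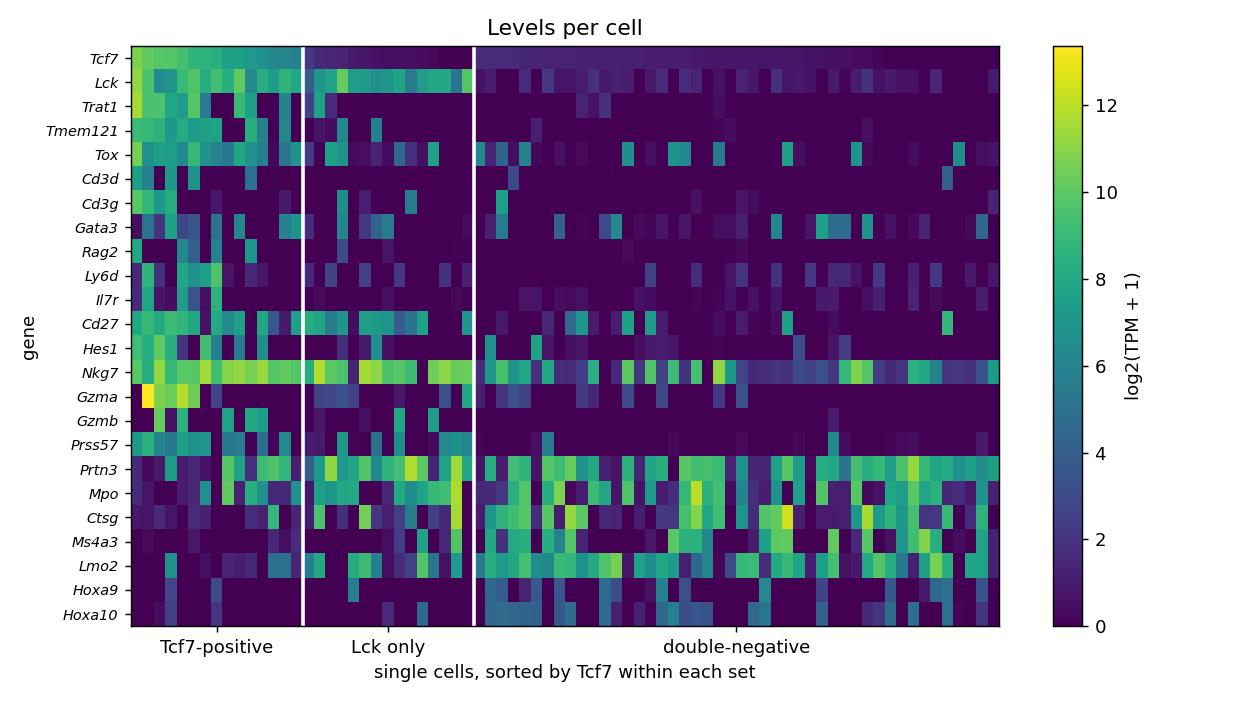
Level of selected genes (y axis) in every cell (x axis, sorted by Tcf7 within each set) as log2(TPM + 1), with white lines between the sets. The 15 Tcf7-positive cells differ among themselves: 10 hold Trat1, 5 hold Rag2, 5 hold Gzma and 6 hold Prtn3.

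Cell cycle genes overlapped widely between the sets. Of 26 genes of S phase, Rfc5 alone was higher by 30 points, beside 3.09% of all tested genes. The median difference was 7.32 points. Rfc5, a subunit of the clamp loader for DNA replication, was present in 12 of 15 Tcf7-positive, 11 of 15 Lck-only and 19 of 46 double-negative cells. Cells held a mean of 15 ± 6.47 S phase members if Tcf7-positive (SD over 15 cells), 16.4 ± 6.34 if Lck-only and 12.7 ± 7.12 if double-negative. The difference of 2.28 members is smaller than the spread between cells, and it was 6.22 in title numbers 2 to 6 and -2.17 in numbers 7 to 11. Of 26 genes of G2 and M phase 0 passed 30 points in either direction, although 25 had a higher share in Tcf7-positive cells by any margin, with a median of 9.28 points. The mean number per cell was 9.20 ± 7.09 in Tcf7-positive, 7.20 ± 7.20 in Lck-only and 6.65 ± 5.23 in double-negative cells. The medians were closer, at 6, 4 and 5 in the same order. The difference of 2.55 members between the Tcf7-positive and double-negative means was 5.57 without the 6 cells highest in Tcf7. It was 4.34 against cells with both genes below 1 TPM, and 1.46 in title numbers 7 to 11. Cdk1, the kinase that drives entry into mitosis, was present in 11 of 15 and 21 of 46 cells. Such genes are present together in dividing cells, so the 25 are not separate observations.

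**Figure D5:**
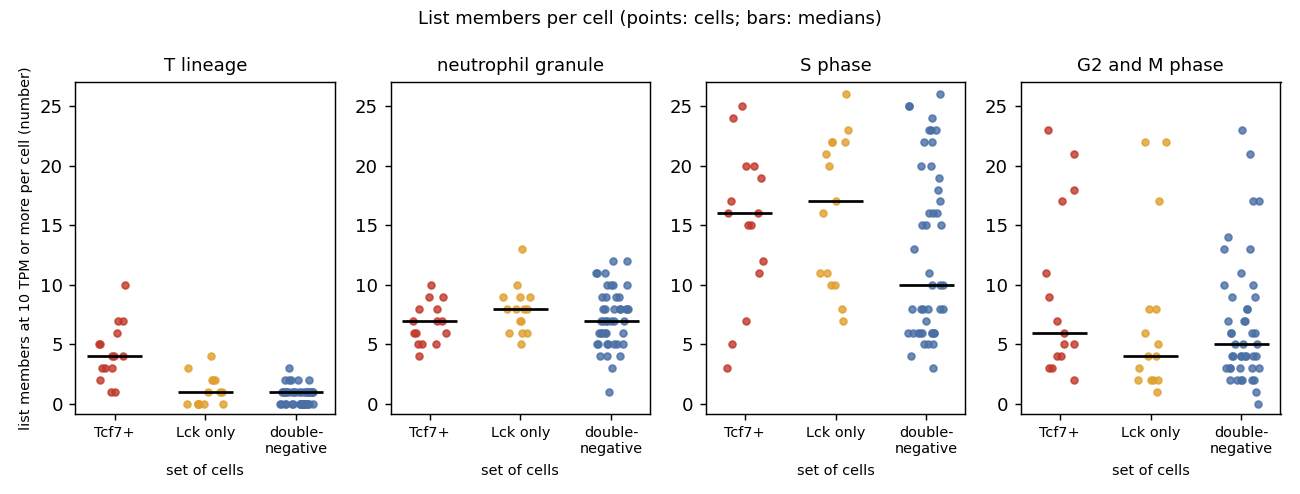
Number of list members at 10 TPM or more per cell (y axis) in the 3 sets (x axis) for T lineage, neutrophil granule, S phase and G2 and M phase genes, with 1 point per cell. The T lineage panel separates most of the Tcf7-positive cells (median 4) from the double-negative cells (median 1), and the other 3 panels overlap.

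Of the 15 genes with the largest difference upward, several stand in none of the gene lists. Atp8b4, a lipid-transporting ATPase, was present in 10 of 15, 6 of 15 and 0 of 46 cells. Dpp4, the surface peptidase CD26 of T cells, was present in 9, 2 and 2 cells, and Tnfrsf26, a TNF receptor family member, in 10, 2 and 4. Patz1, a zinc-finger repressor of developing T cells, was present in 13, 11 and 14 cells, and Timp2, an inhibitor of metalloproteinases, in 8, 2 and 0. At the other end stood Tspan6, a tetraspanin (1, 3 and 29 cells), Igfbp7, a secreted binding protein (6, 10 and 42), and Anxa3, an annexin of neutrophils (0, 4 and 23). Across 11 alternative settings that changed the cells or values, 14 of the 15 leading higher genes stayed past 30 points in each, the exception being Nkg7, as did 11 of the 15 leading lower genes, the exceptions being Wfdc17, Pitpna, Lilrb4 and Gp49a. These genes were selected as the largest differences in the same cells, so this describes them and supports nothing further. Crip1, a small LIM-domain protein picked after its values were seen, had medians of 1972, 119 and 55.3 TPM in the 3 sets.

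The Lck-only cells lay between the other sets for most of these genes. Their share was strictly between those of Tcf7-positive and double-negative cells for 197 of the 259 higher and 91 of the 127 lower genes. It was nearer to the Tcf7-positive share for 117 and 42. Since the genes were counted from the difference between the outer sets, these positions are a description.

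The Tcf7-positive cells also differed among themselves. Spearman's rho of their Tcf7 level, which chose the cells, is given over the 15 cells as a description only, since several of the genes were picked for their difference and levels in a cell share its library. For single genes it was 0.76 with Tmem121, 0.72 with Trat1, 0.71 with Cd27, 0.54 with Tox, 0.30 with Lck, -0.19 with Nkg7 and -0.50 with Prtn3. For members present per cell it was 0.69 with T lineage, 0.29 with early lymphoid, -0.27 with neutrophil granule, -0.32 with S phase and -0.48 with G2 and M phase genes. It was -0.40 with the number of genes detected, whose part in these values was not tested. Mpo, Prtn3, Ctsg, Ms4a3 and Elane, picked from the granule list after values were seen, include 3 of its 4 lower members and 0 of its higher ones. The 6 Tcf7-positive cells with none of them had a median Tcf7 of 811 TPM (349 to 1687 TPM), and the 9 with at least 1 a median of 148 TPM (53.1 to 883 TPM). Their medians of genes at 1 TPM were 3916 and 4722, and the ranges of Tcf7 overlapped.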

How the data were processed

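RNA was measured in 76 sorted single iHPCs. The authors deposited 1 table of TPM in which every column sums to 1000000, so depth is unknown. All columns were matched to cells by title. The build was mm10 and the tools were StringTie 1.3.4, SAMtools 0.1.19, HISAT2 2.1.0 and bcl2fastq, according to the submitters' processing notes. An annotation version was not given in the sources used here, nor was a filter on genes. An exact 0 can be a failed capture. No doublet caller was run, since the labels describe sorted single cells.

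Cells were divided by Tcf7 and Lck at 10 TPM. Shares of cells at 10 TPM or more carry exact Clopper-Pearson 95% intervals (SciPy 1.17.1, pandas 2.3.3), and 3 counts set the limit of a count of 0. Intervals and limits cover counting error only. The members and the 29 gene lists (512 genes, 479 listed, 5 under an older symbol through RefSeq GRCm38.p6) were chosen with earlier results of these data known. The text names the 15 genes most points higher and the 15 most points lower, leaving out ribosomal-protein genes and gene models. It also names the 4 members of each list present in most cells, members past 30 points, and any member of the T, B, NK and granule lists. Txk, Notch1, Dntt, Tpsb2, Cma1, Fcer1a, Crip1, the combinations, the correlations, the promoters and the motifs were chosen after values were seen. Alternatives changed the threshold for presence, the comparison cells, the cells kept, the scaling and the gene filter, and the pseudocount of log2 levels. The setting without cells of title letter A was added after seeing the data. The counting code was run on shuffled values with planted differences far wider than 30 points. That run checks the code only and gives no support to the counts of higher and lower genes. Some genes taken by the rule are not reported here.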

Additional observations from a re-analysis of the deposited data

How the results depend on the processing

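The number of higher genes (259) was 393 when comparison cells had both Tcf7 and Lck below 1 TPM, 426 in cells with at least 3500 genes, 535 in title numbers 2 to 6, 481 in numbers 7 to 11 and 593 without the 6 cells highest in Tcf7. The number of lower genes (127) was 256 in numbers 2 to 6 and 423 in numbers 7 to 11. Fewer cells enter each of these settings. With at least 3500 genes and without the 6 cells highest in Tcf7, the lower genes numbered 128 and 118, and the median difference over tested genes was 3.21 and 4.35 points against 1.59; the cause was not tested. The S phase difference reversed in numbers 7 to 11, at -2.17 members. The T lineage, granule, B lineage, NK, and G2 and M differences, the other lists recomputed, did not reverse. The granule difference of -0.439 members was close to none, at -0.0169, without the 6 cells highest in Tcf7. Without the cells of title letter A there were 318 higher and 163 lower genes. Of 528 share differences of 48 single genes under the alternatives 54 left the interval of either set, and no difference past 30 points reversed. Tcf7 thresholds of 5 and 50 TPM chose the same 15 cells and so tested nothing. No paired analysis was possible because there is 1 group, the sets are cut from measured values and the result comes from no test. Depth is unknown, so absence and failed capture of a gene in a cell cannot be told apart.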

Other observations

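Of all tested genes 3.09% were higher and 1.51% lower, and single members of the interferon, receptor, survival and homing lists were among them. Nothing is read from these members about their lists. Usp18, a brake on interferon signalling, was present in 8 of 15 Tcf7-positive, 4 of 15 Lck-only and 6 of 46 double-negative cells. It was the single member of 22 interferon response genes past 30 points, and 19 of the 22 entered the comparison of shares. Il4ra, the interleukin-4 receptor chain, was present in 0 of 15 Tcf7-positive, 8 of 15 Lck-only and 15 of 46 double-negative cells. Mcl1, which protects cells from death, was present in 2, 4 and 20 cells. Among homing genes Itga4, an integrin chain of lymphocytes, was present in 10, 4 and 13 cells, and Itga6, another integrin chain, in 0, 5 and 14. Beta-globin listed as Beta-s had medians of 23.8, 454 and 1143 TPM, but near-identical globin copies can exchange reads, and at 1 TPM its difference was -6.67 points rather than -44.5 points. Glycolysis, respiratory chain, pan-haematopoietic and housekeeping lists held 0 genes past 30 points.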
